A study of Mus musculus with 12 samples.

Results

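The genes described here encode calponins (Cnn1, Cnn2, Cnn3), transgelins (Tagln, Tagln2), MARCKS proteins (Marcks, Marcksl1) and cysteine-rich LIM proteins (Crip1, Crip2). All probe sets of the deposited array values that the platform annotation gives to 1 of these 9 genes alone were taken. This gave 12 probe sets of 7 genes, of 17097 genes with such a probe set in the whole series. The genes were put together because some of them differed between the lines in these same arrays, so their differences are described by their values and no test is given for them. Tagln was represented only by a probe set shared with its neighbour Pcsk7, and Tagln2 had no named probe set in the annotation used.

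The arrays measured total RNA of 3 mouse lines of acute myeloid leukaemia, each on 4 arrays. The lines TB13 and TB14 are labelled as expressing both Trib1 and Bcl11a, and the line called Trib1 as expressing Trib1 without Bcl11a. Trib1 is a pseudokinase that brings the myeloid transcription factor C/EBPalpha to degradation, and Bcl11a is a zinc finger transcriptional repressor. All 3 lines therefore carry Trib1, received no treatment and were grown in the same medium with 10% fetal bovine serum and interleukin-3 at 5 ng/ml. TB13 and TB14 are single lines, and the labels give neither their derivation nor whether the 4 arrays of a line came from separate cultures, so every spread given here is between arrays of one line and may be technical.

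Calponins and transgelins bind along actin filaments, and they carry a calponin homology domain and calponin-like repeats. Cnn1 and Tagln are known as smooth muscle genes, while Cnn2, Cnn3 and Tagln2 are made by many other cells, blood cells among them. MARCKS proteins lie at the inner face of the plasma membrane, where they bind phosphoinositides, calmodulin and actin, and protein kinase C releases them by phosphorylation. Crip1 and Crip2 are small proteins built of zinc-binding LIM domains, which in other proteins often serve as docking sites at actin structures.

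Of the 12 probe sets, 8 exceeded the median of their array on at least 4 of the 12 arrays, the filter used for all probe sets. They belonged to Cnn2, Cnn3, Marcksl1, Crip1 and Crip2. Both Cnn3 probe sets were below the median on every Trib1 array and passed only through the lines where they were brighter, so they had to differ. Marcksl1 set 1435415_PM_x_at likewise passed only through its 4 TB14 arrays. The array medians were 25.5 to 25.9 in TB13, 20.8 to 21.1 in TB14 and 21.1 to 21.4 in Trib1, while the upper quartiles were 71.8 to 72.5 on TB13 arrays, 106 to 109 on TB14 arrays and 102 to 106 on Trib1 arrays. The TB13 arrays thus held a narrower range of values, and their 18 hybridization controls, control transcripts that are added to the sample and do not come from the cells, differed from Trib1 by -0.93 at the median on the log2 scale, with 17 of 18 lower. In TB14 the same controls differed by 0.0010 at the median. Whether this accounts for any TB13 difference was not tested. For most member probe sets that passed the filter, TB13 differences are therefore given both as deposited and after quantile scaling. Quantile scaling gives every array the same distribution of values. Many TB13 values of other genes are given only as deposited, and the size of their changes can depend on the scaling. All 12 myeloid marker genes were brighter than the array median in each line, and their summed intensity was 6841 to 6966 in TB13, 11333 to 11409 in TB14 and 9386 to 9408 in Trib1. Of the smooth muscle genes, Myh11, Actg2, Lmod1 and Myocd did not pass the filter, with means of 17.2 to 18.4 in TB13, 12.2 to 12.7 in TB14 and 12.7 to 13.5 in Trib1. Acta2 averaged 87.1 in TB13, 66.1 in TB14 and 69.5 in Trib1, Des 120 in TB13, 79.5 in TB14 and 84.5 in Trib1, and Synpo2 32.6 in TB13, 17.6 in TB14 and 19.1 in Trib1. These 3 rose in TB13 as deposited, by 0.28, 0.45 and 0.51 on the log2 scale. Over all genes tested, 29.0% were called higher in TB13 by limma at an adjusted p under 0.05. The Synpo2 means lay below the array medians in TB14 and Trib1, so its passing the filter may rest on TB13, where it was brightest. Summed intensities of the smooth muscle list, with 3 of 7 genes past the filter, were 292 to 323 in TB13, 213 to 214 in TB14 and 223 to 229 in Trib1. The fibroblast list, with 2 of 8 past it, gave 158 to 175 in TB13, 165 to 175 in TB14 and 167 to 185 in Trib1. The endothelial list, with 2 of 6 past it, gave 377 to 427 in TB13, 634 to 677 in TB14 and 832 to 867 in Trib1. The B and T cell list, with 6 of 7 past it, gave 292 to 351 in TB13, 185 to 193 in TB14 and 245 to 254 in Trib1. The part of these in the member differences was not tested. None of the 4 Bcl11a probe sets passed the filter, at 7.69 to 17.3 in TB13, 6.70 to 15.7 in TB14 and 7.65 to 21.5 in Trib1, and so they do not check the labels. In cultures measured in bulk, fewer cells that make a gene and less RNA per cell cannot be told apart.

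The promoters shown are those of Cnn3 and Marcksl1, which were ordered alike over the lines, of Crip1, which was low in TB13, and of Cnn2, which was higher in TB14, each as 300 bases from 250 before to 50 after the annotated start (RefSeq, assembly GRCm38.p6, plus strand). They are the Cnn3 promoter at chr3:121426291-121426590, the Marcksl1 promoter at chr4:129513331-129513630, the Crip1 promoter at chr12:113151762-113152061 and the Cnn2 promoter at chr10:79988350-79988649. Capitals mark matches to TGACCA, a core bound by BCL11A, to GAGGAA, the core bound by PU.1 and other ETS factors, or to the CArG box, the site of serum response factor. Both strands were searched for TGACCA (reverse complement TGGTCA) and GAGGAA (reverse complement TTCCTC), and the CArG box reads the same on both.
Cnn3: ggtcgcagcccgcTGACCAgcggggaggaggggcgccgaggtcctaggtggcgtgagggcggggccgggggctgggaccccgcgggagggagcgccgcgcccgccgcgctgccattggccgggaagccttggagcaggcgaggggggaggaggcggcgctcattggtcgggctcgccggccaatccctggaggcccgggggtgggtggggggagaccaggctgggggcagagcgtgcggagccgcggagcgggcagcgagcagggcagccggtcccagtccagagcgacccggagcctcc
Marcksl1: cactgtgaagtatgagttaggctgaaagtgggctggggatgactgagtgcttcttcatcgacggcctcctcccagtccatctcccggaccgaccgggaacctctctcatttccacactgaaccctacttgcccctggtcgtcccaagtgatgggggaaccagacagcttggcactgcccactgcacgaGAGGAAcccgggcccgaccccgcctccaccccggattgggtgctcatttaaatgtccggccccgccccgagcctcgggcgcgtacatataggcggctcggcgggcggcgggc
Crip1: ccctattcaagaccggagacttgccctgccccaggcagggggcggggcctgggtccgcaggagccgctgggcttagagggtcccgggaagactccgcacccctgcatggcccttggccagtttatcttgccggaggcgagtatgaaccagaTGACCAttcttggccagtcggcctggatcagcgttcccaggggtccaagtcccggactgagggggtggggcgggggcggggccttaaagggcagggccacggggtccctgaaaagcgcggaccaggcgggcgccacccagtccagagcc
Cnn2: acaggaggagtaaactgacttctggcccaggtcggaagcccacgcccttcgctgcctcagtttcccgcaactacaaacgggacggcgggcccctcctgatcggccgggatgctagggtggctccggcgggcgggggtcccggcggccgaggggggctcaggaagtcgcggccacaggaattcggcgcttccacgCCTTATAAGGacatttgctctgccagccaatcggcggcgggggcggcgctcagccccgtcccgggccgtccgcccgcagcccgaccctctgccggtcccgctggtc
The first base of TGACCA lay 237 bases before the start of Cnn3 and 99 before that of Crip1. GAGGAA lay 62 bases before the start of Marcksl1, and a CArG box, CCTTATAAGG, 56 bases before that of Cnn2. The only other match among the 8 windows found for 7 of the members was TGACCA 105 bases before the start of Tagln2. Among all 32851 windows of the table, 13.6% held TGACCA, 28.3% held GAGGAA and 1.63% held a CArG box, so the TGACCA and GAGGAA matches are common ones. A match here is a run of letters, and binding was not measured.

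Cnn3, the acidic calponin, had the largest difference of the members in TB14 against Trib1. It was brightest in TB14, intermediate in TB13 and dim in Trib1. Its brighter probe set, 1436836_PM_x_at, read 62.1, 55.3, 60.6 and 55.4 on the TB13 arrays, 299, 304, 293 and 316 on the TB14 arrays, and 9.97, 9.61, 9.95 and 10.7 on the Trib1 arrays. No 2 lines overlapped, and every Trib1 value lay below the array median. The mean was 58.3 ± 3.50 in TB13, 303 ± 9.70 in TB14 and 10.1 ± 0.461 in Trib1 (SD, n = 4 each). On the log2(value + 12.7) scale, which understates changes of dim genes, the differences from Trib1 were 1.64 ± 0.051 (SE) in TB13 and 3.79 ± 0.051 in TB14. Since the files used give no detection calls, the Trib1 reading may be background. The mean of the Trib1 array medians, 21.3, was taken as a ceiling for this reading. Against it, the deposited Cnn3 means were at least 2.73-fold higher in TB13 and at least 14.2-fold higher in TB14. The TB13 figure depends on the scale of the TB13 arrays, where Cnn3 averaged 2.27 times their own medians. TB14 exceeded TB13 by 2.15 on the log2 scale. Quantile scaling gave 1.81 for TB13, 3.55 for TB14 and 1.74 for TB14 against TB13.

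The other Cnn3 probe set, 1455570_PM_x_at, read 21.1, 18.4, 23.1 and 23.1 in TB13, 76.9, 62.7, 66.1 and 71.9 in TB14, and 9.25, 10.7, 9.73 and 9.58 in Trib1. The lines again came in the same order with no overlap, at log2 differences from Trib1 of 0.60 in TB13 and 1.86 in TB14 (0.47 and 1.75 after quantile scaling). Every TB13 and Trib1 value lay below the array medians, where TB13 arrays read higher in general. The part of this in the TB13 difference was not tested. On the deposited values, against the Trib1 ceiling of 21.3, this set was at least 1.00-fold in TB13 and at least 3.25-fold in TB14. Its TB13 mean was 0.83 times the TB13 array medians and 18.9 after quantile scaling, so no rise over the ceiling is read in TB13. Its margin of TB14 over TB13 was 1.27 as deposited and 1.29 after quantile scaling, but 0.0011 after calibration of the arrays on the hybridization controls. The names of both probe sets end in x_at, by which the maker marks sets holding probes that can match other transcripts, so the signal cannot be given to Cnn3 alone with certainty.

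Cnn2, the calponin commonly made in leukocytes, was bright in all lines and higher in TB14 than in Trib1. Its probe set read 719.6, 650.0, 636 and 698 in TB13, 1072, 1074, 1075 and 1074 in TB14, and 672, 664, 709.7 and 691 in Trib1. All TB14 values lay above all others, while TB13 and Trib1 overlapped. The means were 676 ± 39.5 in TB13, 1074 ± 1.43 in TB14 and 684 ± 20.3 in Trib1 (SD, n = 4 each). TB14 stood 0.64 ± 0.034 (SE) above Trib1 on the log2 scale, or 1.57 times its mean, and stayed between 0.60 and 0.73 over 5 scalings of the arrays. The TB13 difference had no settled sign: it was -0.02 as deposited, 0.51 after quantile scaling and -0.28 after scaling to equal medians. The basic calponin Cnn1, a marker of contractile smooth muscle, stayed below the array median on all 12 arrays, at 12.97 to 18.9 in TB13, 11.98 to 13.9 in TB14 and 11.2 to 12.5 in Trib1. Its TB13 values lay above all Trib1 values at this low brightness as deposited, but the ranges overlapped after quantile scaling.

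The transgelins could barely be read. The probe set shared by Tagln, a smooth muscle actin-binding protein, and Pcsk7, a proprotein convertase, read 25.4 to 29.6 in TB13, 21.3 to 24.96 in TB14 and 20.8 to 23.5 in Trib1, close to the array medians. Because it names both genes, none of this signal can be given to Tagln. Pcsk7 had a probe set of its own with means of 97.9 ± 29.9 in TB13, 155 ± 0.964 in TB14 and 171 ± 4.79 in Trib1.

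**Figure D1:**
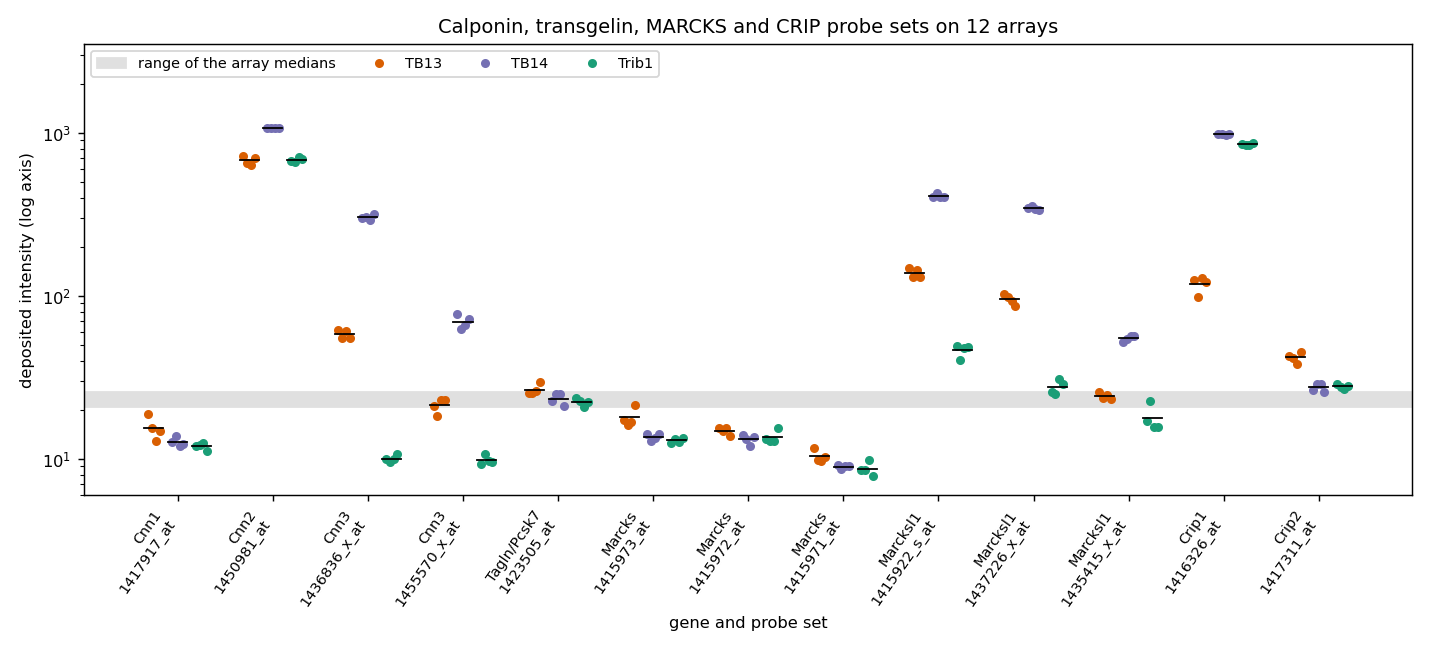
Deposited intensity (log axis) of the 12 member probe sets and of the set shared by Tagln and Pcsk7, by line, with 1 point per array, a bar at the mean of 4 arrays, and the range of the array medians in grey. Cnn3 and Marcksl1 are highest in TB14, Crip1 is lowest in TB13 at a mean of 119, and Cnn1 and Marcks lie below the array medians in all lines.

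Marcksl1, the smaller relative of MARCKS that protein kinase C also phosphorylates, was ordered like Cnn3. Its brightest probe set, 1415922_PM_s_at, read 148, 129.6, 143 and 131 in TB13, 404, 424, 406 and 406 in TB14, and 49.3, 40.3, 48.2 and 48.6 in Trib1. The 3 lines were fully apart, at means of 138 ± 9.03 in TB13, 410.2 ± 9.53 in TB14 and 46.6 ± 4.23 in Trib1 (SD, n = 4 each), or 2.96 times the Trib1 mean in TB13 and 8.80 times in TB14. The log2 differences from Trib1 were 1.35 ± 0.056 (SE) in TB13 and 2.84 ± 0.056 in TB14, against 1.91 and 2.62 after quantile scaling. Among 11223 genes, each taken at its brightest probe set, Marcksl1 ranked 21st from the top in TB13 against Trib1 and 10th in TB14 against Trib1, with the same ranks after quantile scaling. The margin of TB14 over TB13 depended on the scaling, at 1.49 as deposited and 0.71 after quantile scaling.

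The other Marcksl1 probe sets kept the order TB14, TB13, Trib1 on the deposited values. Set 1437226_PM_x_at read 102, 98.8, 92.8 and 87.1 in TB13, 347, 358, 341 and 336 in TB14, and 25.7, 25, 31.0 and 28.7 in Trib1, with log2 differences from Trib1 of 1.42 in TB13 and 3.15 in TB14. Set 1435415_PM_x_at was much closer to the array medians, at 23.4 to 25.8 in TB13, 51.9 to 57.1 in TB14 and 15.6 to 22.8 in Trib1. For that set TB13 stood 0.29 above Trib1 as deposited and 0.12 ± 0.063 (SE) after quantile scaling, while TB14 stood 1.15 above Trib1 (1.06 after quantile scaling). All 3 sets have names ending in s_at or x_at, so other transcripts may add to their signal. Marcks, the founding member and the better known substrate of protein kinase C, was below the array median for all 3 of its probe sets on all 12 arrays. Its values ranged from 9.75 to 21.5 in TB13, from 8.73 to 14.3 in TB14 and from 7.88 to 15.6 in Trib1, and none of the sets passed the filter. For set 1415973_PM_at the TB13 values, 16.1 to 21.5, lay above the Trib1 values, 12.5 to 13.5, but all of them were below the array medians, where TB13 arrays read higher in general.

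Crip1, a short LIM protein found in immune cells and gut, went the other way in TB13: it was bright in TB14 and Trib1 and much dimmer in TB13, though still above the array median. It read 126, 98.9, 129 and 122 in TB13, 979.8, 986, 969 and 988 in TB14, and 856, 842, 846 and 863 in Trib1. The lines did not overlap, and the gap between TB13 and the others was far wider than the spread of any line. The means were 119 ± 13.5 in TB13, 981 ± 8.87 in TB14 and 852 ± 9.30 in Trib1 (SD, n = 4 each). TB13 was lower by a factor of 7.17, a log2 difference of -2.72 ± 0.052 (SE), and TB14 was 1.15 times the Trib1 mean, a log2 difference of 0.20 ± 0.052. The TB13 difference was -2.04 after quantile scaling and ran from -2.97 to -1.79 over the 5 scalings, so its direction did not depend on them. Crip1 was 15th from the bottom of the 11223 genes in TB13 against Trib1, 32nd after quantile scaling, and TB14 exceeded TB13 by 2.92 (2.25 after quantile scaling).

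Crip2, a related LIM protein of heart, vessels and other tissues, did not share this pattern. It read 42.5, 41.9, 38.3 and 45.3 in TB13, 26.3, 28.9, 28.8 and 25.9 in TB14, and 29.0, 27.5, 26.9 and 28.1 in Trib1. TB13 lay above both other lines without overlap, and TB14 overlapped Trib1. The log2 difference from Trib1 was 0.43 ± 0.049 (SE) in TB13, 0.37 after quantile scaling and 0.21 to 1.60 over the 5 scalings, and it was -0.01 in TB14. Dim probe sets in general were brighter on the TB13 arrays, whose medians were higher, and the part of this in the Crip2 difference was not tested.

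**Figure D2:**
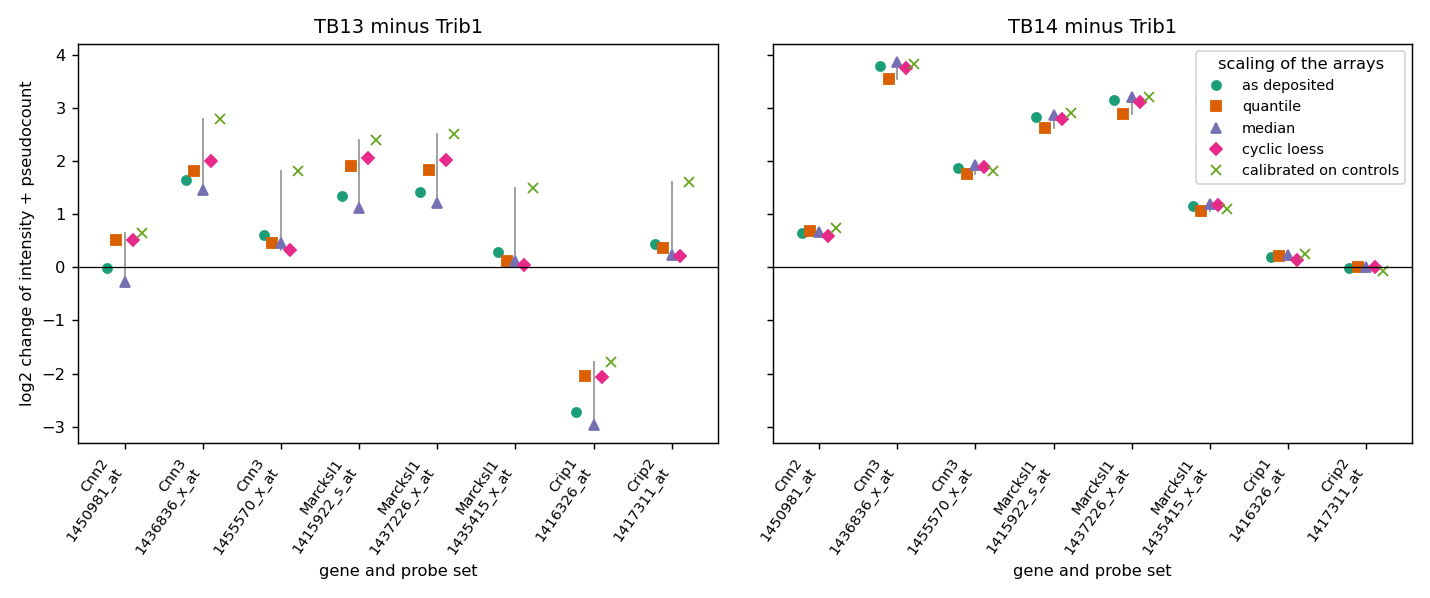
Log2 change of the 8 member probe sets that passed the filter in TB13 against Trib1 (left) and TB14 against Trib1 (right) under 5 scalings of the arrays, 1 point per scaling (set side by side for legibility) with a grey line over their range. The TB14 changes hardly depend on the scaling, whereas in TB13 Cnn2 runs from -0.28 to 0.64 and Crip1 stays at -1.79 or lower.

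The 2 comparisons with Trib1 share the Trib1 arrays, so their values stand side by side here without being set against each other. Of all 17475 probe sets tested with limma, 90.4% were called in TB13 against Trib1, 49.5% in TB14 against Trib1 and 91.2% in TB14 against TB13, at an adjusted p under 0.05. Over the 8 member probe sets the median log2 change was 0.51 for TB13, against -0.39 over all probe sets, and 1.51 for TB14, against 0.01 over all. After quantile scaling these medians were 0.49 against -0.03 in TB13 and 1.41 against 0.01 in TB14. Of the 8 member probe sets, 6 lay wholly higher and 1 wholly lower in TB13 than in Trib1, where 23.6% of all probe sets lay wholly higher and 62.1% wholly lower. In TB14 against Trib1, 7 lay wholly higher, where 33.2% of all lay wholly higher and 23.5% wholly lower. In TB14 against TB13, 7 lay wholly higher and 1, Crip2, wholly lower, where 63.3% of all lay wholly higher and 23.9% wholly lower. Since the members were chosen from these contrasts and 3 of the probe sets passed the filter only where they were bright, nothing is read from these counts and medians.

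Calponin homology domain proteins, which share a domain with the calponins, include alpha-actinins, parvins and fimbrins. As deposited, of 25 tested genes for them, 5 were called higher and 19 lower in TB13 against Trib1, or 20% and 76%. In TB14, 2 were called higher and 10 lower, or 8% and 40%. Over all 11223 genes, 29.0% were called higher and 63.6% lower in TB13, and 27.0% higher and 21.5% lower in TB14. The calponin homology list's median log2 change was -0.63 for TB13, against -0.39 over all genes, and -0.02 in TB14, against -0.0024. After quantile scaling the TB13 counts were 6 higher and 18 lower, with 42.0% of all genes higher and 38.3% lower. Calibration of the arrays on the hybridization controls gave 9 higher and 8 lower, with 73.2% of all genes higher and 11.9% lower. The lists below are to be read against the same shares of all genes. The genes named from each list were picked for being called the same way in both lines and for their size of change. Their adjusted p-values from limma are part of that choice and add no support. They measure the spread between arrays of single lines.

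Actn1, an alpha-actinin that crosslinks actin filaments, averaged 251 ± 6.94 in TB13, 459 ± 5.57 in TB14 and 836 ± 7.80 in Trib1 (SD, n = 4 each). It fell by 1.68 in TB13 (adjusted p = 2.4e-19) and by 0.85 in TB14 (adjusted p = 8.5e-15) on the log2 scale. After quantile scaling its changes were -0.97 in TB13 and -0.90 in TB14, so the gap between these lines depended on the scaling. Ehbp1, a linker of endocytosis to actin, averaged 40.4 in TB13, 54.3 in TB14 and 150.5 in Trib1, with log2 changes of -1.62 in TB13 and -1.29 in TB14. Both fell in TB13 and TB14 under all 5 scalings. Parvb, the beta-parvin of integrin adhesions, was lower by 1.33 on the log2 scale in each line as deposited, with a mean of 40.2 in both and 120.2 in Trib1. Its TB13 change was no longer called after calibration on the hybridization controls, at -0.15. Mapre2, a microtubule end-binding protein, averaged 132 in TB13, 343 in TB14 and 494 in Trib1, and it changed by -1.81 in TB13 and by -0.51 in TB14 on the log2 scale.

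LIM domain proteins form the wider family of Crip1 and Crip2. Of 26 tested genes, 7 were called higher and 17 lower in TB13, which is 26.9% and 65.4%, close to the 29.0% and 63.6% of all genes. After quantile scaling the TB13 counts were 11 higher and 9 lower, or 42.3% and 34.6% against 42.0% and 38.3% of all genes, and after calibration 18 and 6, or 69.2% and 23.1% against 73.2% and 11.9%. In TB14, 5 were called higher and 10 lower, or 19.2% and 38.5% against 27.0% and 21.5% of all genes. The list's median log2 changes were -0.51 for TB13 and -0.06 for TB14. The genes named here fell in both lines under all 5 scalings. Pdlim2, a PDZ and LIM domain protein known to target NF-kappaB for degradation, averaged 74.9 ± 10.98 in TB13, 152 ± 2.14 in TB14 and 271 ± 1.96 in Trib1, with log2 changes of -1.70 (adjusted p = 7.1e-15) and -0.79 (adjusted p = 4.9e-09). Ablim1, an actin-binding LIM protein, averaged 95.3 in TB13, 192 in TB14 and 315 in Trib1. Pdlim5 averaged 159 in TB13, 331 in TB14 and 444 in Trib1. Pdlim7 averaged 60.0 in TB13, 147 in TB14 and 181 in Trib1. Both belong to the enigma group of scaffolds that tie kinases to the cytoskeleton, and their TB14 changes, -0.41 and -0.28, were the smaller ones.

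Among 24 tested genes that act on MARCKS proteins or resemble them (protein kinase C, calmodulin, phosphoinositide enzymes), 5 were called higher and 17 lower in TB13, and 7 higher and 8 lower in TB14. In TB13 this was 20.8% higher and 70.8% lower, against 29.0% and 63.6% of all genes. Quantile scaling made the TB13 counts 8 and 10, or 33.3% and 41.7% against 42.0% and 38.3% of all genes, and calibration 16 and 3, or 66.7% and 12.5% against 73.2% and 11.9%. In TB14 it was 29.2% and 33.3%, against 27.0% and 21.5%. The largest difference was in Prkcb, the protein kinase C beta of blood cells, which averaged 89.9 ± 21.5 in TB13, 216 ± 10.0 in TB14 and 559 ± 40.02 in Trib1 (SD, n = 4 each). Its log2 change was -2.49 in TB13 (adjusted p = 4.8e-15, -1.89 after quantile scaling) and -1.32 in TB14 (adjusted p = 4.1e-10). Prkca, protein kinase C alpha, averaged 90.6 in TB13, 152 in TB14 and 201 in Trib1, and its TB13 change of -1.05 became 0.04 after calibration. Pip4k2a, a phosphoinositide kinase, averaged 219 in TB13, 407 in TB14 and 561 in Trib1. Pip4k2a fell in both lines under all 5 scalings. Basp1, a membrane protein with a MARCKS-like effector domain, was the named gene of this list that rose, at 221 ± 12.2 in TB13, 191 ± 7.40 in TB14 and 128 ± 5.53 in Trib1. Its log2 change was 0.74 in TB13 (adjusted p = 2.0e-11, 1.43 after quantile scaling) and 0.53 in TB14 (adjusted p = 1.6e-08).

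Cnn1, Cnn2 and Tagln are usually counted among the targets of serum response factor and of actin-regulated transcription. The list of such targets, with regulators such as Mrtfa, numbered 17 tested genes. In TB13, 7 were called higher and 10 lower, or 41.2% and 58.8% against 29.0% and 63.6% of all genes. After quantile scaling it was 4 and 3, or 23.5% and 17.6% against 42.0% and 38.3%, and after calibration 13 and 4, or 76.5% and 23.5% against 73.2% and 11.9%. In TB14, 4 were called higher and 6 lower, or 23.5% and 35.3% against 27.0% and 21.5%. The deposited medians were -0.16 for TB13, against -0.39 over all genes, and 0.0030 for TB14. Egr1, an immediate early transcription factor, averaged 129 ± 5.51 in TB13, 154 ± 5.18 in TB14 and 602 ± 12.9 in Trib1, with log2 changes of -2.12 (adjusted p = 6.2e-19) and -1.88 (adjusted p = 5.7e-18). After quantile scaling the Egr1 changes were -1.40 in TB13 and -1.90 in TB14, so the order of these lines depended on the scaling. Tpm4, a tropomyosin, averaged 37.0 in TB13, 54.2 in TB14 and 31.1 in Trib1 and rose by 0.60 in TB14 (adjusted p = 6.3e-07). Its TB13 change of 0.18 was not called after quantile scaling. Zyx, the adhesion protein zyxin, averaged 147 in TB13, 205 in TB14 and 257 in Trib1. Mrtfa, the coactivator that monomeric actin holds back, averaged 84.5 in TB13, 111 in TB14 and 129 in Trib1. Both fell in TB14, by 0.31 and 0.20 on the log2 scale. Their TB13 changes turned sign with the scaling, at -0.76 and -0.55 as deposited, 0.0040 and 0.0048 after quantile scaling, and 0.26 and 0.56 after calibration.

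Genes of actin monomer binding and filament turnover, a broader set to which no member belongs, numbered 23 tested. In TB13, 2 were called higher and 20 lower, or 8.70% and 87.0% against 29.0% and 63.6% of all genes. After quantile scaling it was 3 and 15, with 65.2% lower against 38.3% of all genes, and after calibration 4 and 12, with 52.2% lower against 11.9%. In TB14, 5 were called higher and 11 lower, or 21.7% and 47.8% against 27.0% and 21.5%. The median log2 change was -0.44 for TB13, against -0.39 over all genes, and -0.06 in TB14. Evl, an Ena/VASP protein that promotes filament growth, averaged 49.3 ± 3.23 in TB13, 85.4 ± 2.26 in TB14 and 190.4 ± 13.1 in Trib1, with log2 changes of -1.71 (adjusted p = 8.3e-16) and -1.05 (adjusted p = 5.9e-12). Its relative Vasp averaged 943 in TB13, 1135 in TB14 and 1704 in Trib1. Cap1, a cyclase-associated actin monomer binder, averaged 377 in TB13, 607 in TB14 and 805 in Trib1. Coro1b, a coronin, averaged 349 in TB13, 550.1 in TB14 and 638 in Trib1. All 4 fell in TB14 under each scaling, and in TB13 the fall of Coro1b shrank to -0.05 and was not called after calibration.

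**Figure D3:**
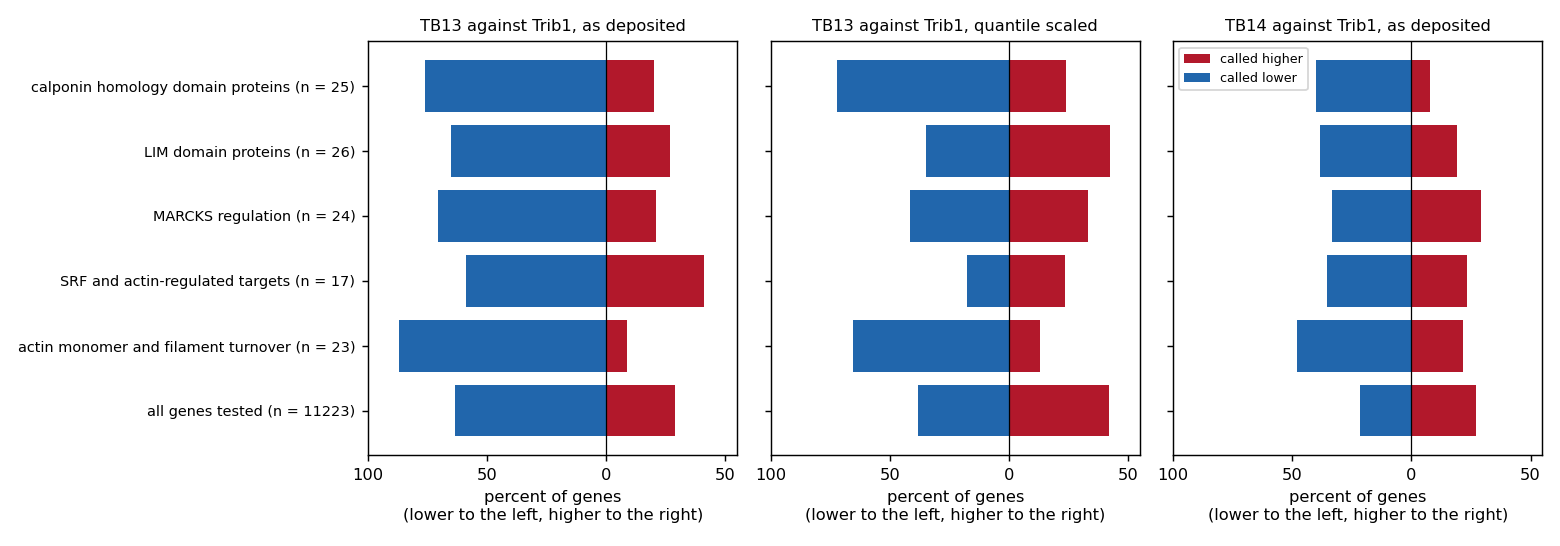
Percent of tested genes called higher (red, right) and lower (blue, left) at an adjusted p under 0.05 in 5 related gene lists and over all 11223 genes, for TB13 against Trib1 as deposited and quantile scaled and for TB14 against Trib1 as deposited. Quantile scaling changes the split of most lists in TB13, while the calponin homology, MARCKS regulation and filament turnover lists have more genes lower than higher in all 3 panels. All genes also have more lower than higher in TB13 as deposited. Under calibration on the hybridization controls, not drawn, the calponin homology and MARCKS regulation lists have more higher than lower in TB13.

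The genes most like 3 of the members were found by Pearson's r of log2 values over the 12 arrays. These arrays form 3 lines, so r mainly compares 3 line means and many genes come close to 1. For Cnn3 the nearest were Anxa2, Marcksl1, Scarb1 and Hmgn1, with r of 0.998 to 0.999 on the deposited values. Anxa2, a calcium-dependent membrane-binding annexin, averaged 830.3 in TB13, 1381 in TB14 and 566 in Trib1, and Scarb1, the receptor for high-density lipoprotein, 123 in TB13, 343 in TB14 and 57.9 in Trib1. For Marcksl1 the nearest were Cnn3, Ms4a2, Hmgn1 and Anxa2, with r of 0.996 to 0.998. Ms4a2, a subunit of the IgE receptor of mast cells, averaged 90.3 in TB13, 276 in TB14 and 33.8 in Trib1. All of these were highest in TB14 and lowest in Trib1.

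For Crip1 the nearest were Ykt6, Hdc, Mrps23 and Foxk2, each with an r of 0.999. Hdc, the enzyme that makes histamine, averaged 96.5 in TB13, 415 in TB14 and 376 in Trib1, and Ykt6, a membrane fusion protein, 96.1 in TB13, 287 in TB14 and 265 in Trib1. These were low in TB13 and close to each other in TB14 and Trib1, as Crip1 was. After quantile scaling Hdc stayed nearest to Crip1, with an r of 0.998, while the nearest of Cnn3 became Elane, Tmsb10, Mcm3 and Pik3c2a.

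**Figure D4:**
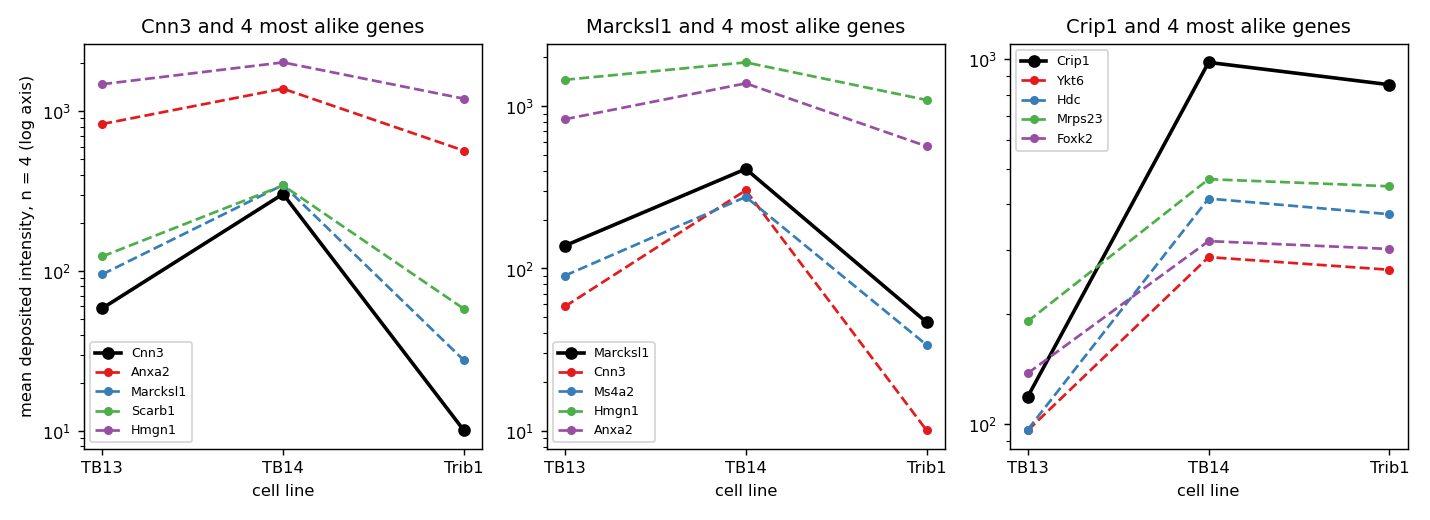
Mean deposited intensity (log axis, n = 4 arrays) of Cnn3, Marcksl1 and Crip1 (black) and of the 4 genes with the highest r to each (dashed), in TB13, TB14 and Trib1, with lines joining the means of 1 gene. Cnn3 and Marcksl1 peak in TB14, and Crip1 and its nearest genes are low in TB13.

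Neighbouring genes on the chromosome, were looked at after the member values were known. Crip2 and Crip1 lie on chromosome 12 with 1 gene between them, and the tested genes on their outer sides were Mta1, a chromatin protein, with means of 133 in TB13, 192 in TB14 and 165 in Trib1, and Tedc1, a centriole protein, with 93.8 in TB13, 170.4 in TB14 and 134 in Trib1. Their TB13 changes turned sign with the scaling, at -0.29 as deposited and 0.44 after quantile scaling for Mta1 and at -0.47 and 0.12 for Tedc1. Next to Marcksl1 on chromosome 4 lies Hdac1, a histone deacetylase, which averaged 902 in TB13, 1343 in TB14 and 1124 in Trib1, log2 changes of -0.31 and 0.25. The TB13 change of Hdac1 turned to 0.08 after quantile scaling, while its TB14 change was 0.26. Next to Cnn2 on chromosome 10 lies Tmem259 on one side, which averaged 301 in TB13, 313 in TB14 and 305 in Trib1, and whose TB13 change was -0.02 as deposited and 0.71 after quantile scaling. On the other side lies Abca7, a lipid transporter, which averaged 92.1 in TB13, 151 in TB14 and 164 in Trib1, and its log2 change of -0.77 in TB13 became -0.15 after quantile scaling. Of the genes around Cnn3 on chromosome 3 only Tlcd4 was tested, at 52.8 in TB13, 27.1 in TB14 and 28.2 in Trib1, highest in TB13, whereas Cnn3 was highest in TB14.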

How the data were processed

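Total RNA of mouse leukaemia lines was labelled with biotin and hybridized to 12 one-colour arrays, 4 per line (TB13, TB14, Trib1), grouped by sample title. The authors deposited linear intensities, which the submitters' processing notes credit to MAS5. Its version, scaling target and genome build were not given in the sources used here. Of 45141 probe sets, 28898 carried 1 gene in the platform annotation, and 17475 of these were above the median of their array on at least 4 arrays. The deposited intensities were taken to log2(value + 12.7), the addend being their 25th percentile, so that log2 changes of dim genes are understated.

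All arrays entered 1 limma model (limma 3.58.1, R 4.3.3; lmFit and eBayes with a variance trend) with 3 line means and no rescaling. Calls needed an adjusted p under 0.05 (Benjamini-Hochberg over all 17475 probe sets), and a gene was called by its brightest probe set. Folds are ratios of mean intensities. Precision is limited by the number of arrays. The members, the 5 related and 5 marker lists and the tests were chosen with earlier results of these data known, so the members get no p-value. From each related list the text names up to 4 genes called the same way in both lines, by size of change. The adjusted p-values printed for them are thus part of the choice. For Cnn3, Marcksl1 and Crip1 it names the 4 genes with the highest r. Quantile, median and cyclic loess scaling and calibration on the 18 hybridization controls were alternatives, as were other filters and pseudocounts, no variance trend, a replicate block and leaving out arrays. The code was tested on simulated data. Promoter windows came from RefSeq. Figures were drawn with matplotlib 3.10.9.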

Additional observations from a re-analysis of the deposited data

Results flagged for a closer look

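In 4 of 39 groups of 4 arrays examined, 1 array lay apart from the other 3 by Dixon's criterion at 95%, and chance alone gives about 1 in 20. Marcksl1 probe set 1415922_PM_s_at read 424.46 on TB14 replicate 2, against 404 to 406 on the other TB14 arrays. The same probe set read 40.29 on Trib1 replicate 2, against 48.2 to 49.3 on the other Trib1 arrays. Neither gap is near the distance between the 2 lines. The Marcks probe set 1415972_PM_at read 15.56 on Trib1 replicate 4, against 12.9 to 13.3 on the others, below the array median throughout. The probe set shared by Tagln and Pcsk7 read 29.57 on TB13 replicate 4, against 25.4 to 26.0 on the others.

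Crip1 moved in opposite directions in the lines labelled with Bcl11a. Its log2 change against Trib1 was -2.72 in TB13, with all 4 arrays below every Trib1 array, and 0.20 in TB14, with all 4 arrays above. The difference between these changes was not tested, since Crip1 was chosen with it known.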

How the results depend on the processing

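Directions of the members against Trib1 held under all 5 scalings for Cnn3, Marcksl1 and Crip1 in both lines and for Crip2 in TB13 and Cnn2 in TB14. Cnn2 in TB13 and Crip2 in TB14 differed little from Trib1 as deposited and changed sign with the scaling. Among the probe sets that passed the filter, the other member difference that reversed was Marcksl1 set 1435415_PM_x_at in TB14 against TB13, at -0.40 after calibration on the hybridization controls, and the cause was not tested. Leaving out any 1 array shifted none of the 48 member differences by more than 0.077 on the log2 scale. Dimness limits Cnn1, Marcks and the Tagln set.

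The number of called probe sets was 15804 in TB13 against Trib1, 8656 in TB14 against Trib1, 14159 in both lines against Trib1 and 15935 in TB14 against TB13. With no filter, which tests 28898 probe sets, it was 24047 in TB13 against Trib1 and 24333 in TB14 against TB13. With 1 probe set per gene, which tests 11223, it was 10393 in TB13 and 5445 in TB14 against Trib1 and 10414 in TB14 against TB13. Leaving out 1 array gave 15568 to 15778 in TB13, 7942 to 9276 in TB14 and 13518 to 14272 in both lines against Trib1, and 15739 to 15920 in TB14 against TB13. Without the 4 TB13 arrays, a setting chosen after seeing the data, TB14 against Trib1 gave 10830. The split of calls in TB13 against Trib1 was 4542 higher and 11262 lower as deposited, 6461 and 7524 after quantile scaling, 3070 and 12760 after median scaling, 6317 and 7458 after cyclic loess and 13088 and 1900 after calibration. In TB14 against TB13 it was 11385 higher and 4550 lower as deposited, and 7838 and 6276, 12944 and 3001, 7500 and 6341, and 2371 and 12493 in the same order.

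With the replicate number as a block the counts were 15792 in TB13, 8555 in TB14 and 14111 in both lines against Trib1 and 15919 in TB14 against TB13. Arrays of the same number correlated at -0.10 to 0.13 (median 0.015) in their deviations from the line means over 12 pairs, with 1 pair over 0.1. Arrays of other numbers correlated at -0.075 to 0.074 (median 0.0054) over 36 pairs, with 0 over 0.1. The highest pair of the same number thus exceeded all of these, but the numbers were not taken to pair the arrays.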
